A study of Mus musculus with 32 samples.

Results

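Fgfr2 and Ctbp2 are 2 of the 17784 transcripts with a listed interaction in these RADICL-seq data, and they are treated together because their annotated spans overlap on the minus strand of chromosome 7. Every interaction whose RNA was assigned to the Fgfr2 or the Ctbp2 gene identifier was taken, and the Fgfr2-assigned RNA tags were split by position into 3 parts. The part called Fgfr2 proper lies at chr7:130162451-130266808, the Ctbp2 span at chr7:132986998-133124009, and the third part, called between, is the stretch from 130266809 to 132986997 (mm10, the same coordinates as GRCm38). The pair was selected on its high capture in the mESC 1FA libraries and on the position split seen there, so levels in mESC 1FA against mOPC 1FA and the split itself are given as descriptions without a test. The members held 144121 of 25231081 listed interactions, of which 142725 were assigned to Fgfr2 and 1396 to Ctbp2. All of them had RNA from the minus strand of chromosome 7, and no Fgfr2-assigned tag fell outside the 3 parts.

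In RADICL-seq a bridge adapter joins RNA to neighbouring DNA inside fixed nuclei, and sequencing reads one tag from each side of the adapter. The 15 libraries came from 2 mouse lines, the embryonic stem cell line R08 (mESC) and the line Oli-neu, which stands for oligodendrocyte progenitors (mOPC). The standard libraries, called 1FA, were fixed in 1% formaldehyde and number 3 for each line. For mESC there were also 3 libraries at 2% formaldehyde (2FA) and 2 of cells given actinomycin D, which blocks transcription, at 5 µg/ml over 4 h (ActD4). NPM stands for non-protein-mediated: here proteinase treatment and reversal of crosslinks came ahead of RNA ligation, and each line had 2 such libraries. With 1 line per cell type, line and cell type cannot be told apart. Replicates were batches of cells at different passages, and the p-values measure the spread between these batches as far as the lists show it. Libraries of a group share a list of pairs called on their pooled replicates, and each group has its own list. The limma and permutation p-values may therefore understate that spread. The ActD4, 2FA and NPM libraries of mESC are all set against the mESC 1FA libraries on which the pair was chosen. Selection for high capture in mESC 1FA favours lower levels in the groups set against it. The p-values of these comparisons do not allow for that selection. The paper picked Fgfr2 as an example among RNAs whose numbers of genomic targets differed between the lines. Its DNA spread in mESC 1FA thus took part in the choice as well, and the tests of spread do not allow for that.

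Fgfr2 encodes a receptor tyrosine kinase of the cell surface that binds fibroblast growth factors and signals through the MAP kinase cascade, a pathway that moves embryonic stem cells out of self-renewal. Ctbp2 encodes a nuclear corepressor that joins zinc-finger repressors such as Zeb1 to histone-modifying enzymes, and a start inside the same gene gives RIBEYE, a structural protein of synaptic ribbons. Introns are copied into pre-mRNA at the gene and removed by splicing, so that intronic RNA comes from unspliced transcript or from introns already cut out.

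The overlap comes from 1 of the 27 Fgfr2 transcripts in GENCODE M21. This transcript, Fgfr2-217, begins with exon 1 at chr7:133123141-133123350 and exon 2 at chr7:133081757-133081860, both inside the Ctbp2 span, and then joins exon 3 at chr7:130172817-130172939 across an intron of 2909 kb. The other Fgfr2 transcripts end at 130266263 or before. The join is shown because all 3 parts hang on it. The sequences below run 5′ to 3′ on the minus strand of GRCm38.p6, and the capitals mark the bases of exon 2 in the joined RNA, the GT that opens the intron and the AG that closes it.

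Fgfr2-217 join, exon 2 to exon 3: GACGCATTTCTATCGtgtatccatcgagat

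exon 2 end, chr7:133081742-133081771: gacgcatttctatcgGTgagttactgtaaa

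exon 3 start, chr7:130172925-130172954: cttctttgattgcAGtgtatccatcgagat

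Exon 2 of Fgfr2-217 begins at 133081860, the base at which a shorter RefSeq Ctbp2 transcript starts. A further RefSeq Ctbp2 start lies at 133015247. The 250 bases before these starts and before the Fgfr2 start at 130266808 are given because RNA tags are set against these positions later, with CG dinucleotides in capitals (RefSeq starts, GRCm38.p6, minus strand).

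Fgfr2, chr7:130266809-130267058: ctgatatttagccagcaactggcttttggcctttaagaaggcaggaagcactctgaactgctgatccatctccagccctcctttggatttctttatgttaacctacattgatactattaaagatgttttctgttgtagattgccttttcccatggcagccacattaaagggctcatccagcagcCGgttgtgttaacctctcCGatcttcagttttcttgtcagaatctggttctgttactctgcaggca

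Ctbp2, chr7:133081861-133082110: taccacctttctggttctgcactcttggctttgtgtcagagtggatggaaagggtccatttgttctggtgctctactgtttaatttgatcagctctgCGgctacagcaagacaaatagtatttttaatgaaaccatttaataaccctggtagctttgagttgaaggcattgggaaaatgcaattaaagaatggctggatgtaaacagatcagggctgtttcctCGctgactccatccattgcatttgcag

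Ctbp2, chr7:133015248-133015497: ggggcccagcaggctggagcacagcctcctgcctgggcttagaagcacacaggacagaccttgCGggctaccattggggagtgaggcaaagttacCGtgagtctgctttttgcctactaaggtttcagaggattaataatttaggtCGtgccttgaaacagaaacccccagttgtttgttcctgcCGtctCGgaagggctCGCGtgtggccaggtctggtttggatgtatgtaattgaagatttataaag

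The Fgfr2 window and the Ctbp2 window before 133081860 each held 2 CG dinucleotides, and the Ctbp2 window before 133015247 held 7. Over 32851 RefSeq promoter windows of the same length the median was 6, and 81.2% held 2 or more and 46.3% held 7 or more. The window before 133081860 lies wholly inside intron 1 of Fgfr2-217 (chr7:133081861-133123140) and ends where that intron ends, with the letters ag. This position is thus a splice site in Fgfr2-217 and a start in the shorter Ctbp2 transcript, and its use as a start was not tested.

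The number of listed interactions per library ranged from 251802 to 2832717. The files list only pairs of a transcript and a 25-kb DNA bin with an adjusted p under 0.05, called on the pooled replicates of a group, so that this number is not the sequencing depth and a low count is not absence. All 3995 member pairs carried 1 adjusted p in all libraries of their group, and the smallest held 7 interactions. The deposited pairs were called for the Fgfr2 identifier as a unit, so a bin filled by RNA of the Ctbp2 span was listed for RNA of the other parts as well. Of 14 mESC markers, 11 to 13 were listed in the mESC groups and 2 and 5 in mOPC 1FA and mOPC NPM. Their summed level was 1891 to 2982 CPM (interactions of a library scaled to its listed total, with no TMM factor) in mESC and 1.81 to 51.2 in mOPC, where Pou5f1 and Nanog were at 0. Of 14 mOPC markers, 13 and 14 were listed in the mOPC groups and 1 to 9 in the mESC groups, where Olig1 and Olig2 were at 0, with summed levels of 16098 to 20130 and 3.97 to 173. PCR duplicates had been removed by the authors. Intervals are not given for single counts, because the lists hold no depth and the read numbers that the paper gives per library were not used.

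Most RNA listed as Fgfr2 in mESC came from the Ctbp2 span. The span held 82.3%, 81.5% and 82.0% of the Fgfr2-assigned interactions of the 3 mESC 1FA libraries, and 82.2%, 81.6% and 80.7% of those at 2FA. For ActD4 the shares were 70.6% and 68.5%, and for mESC NPM 71.5% and 80.8%. In mOPC the larger share came from between, and the Ctbp2 span held 30.5%, 31.7% and 32.7% of the 1FA libraries and 23.5% and 24.9% of the NPM libraries. Fgfr2 proper, the receptor gene itself, never held more than 2.63% of the interactions listed under its name. Counting each RNA tag position once per library lowered the mean share of the Ctbp2 span to 74.4% in mESC 1FA.

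**Figure D1:**
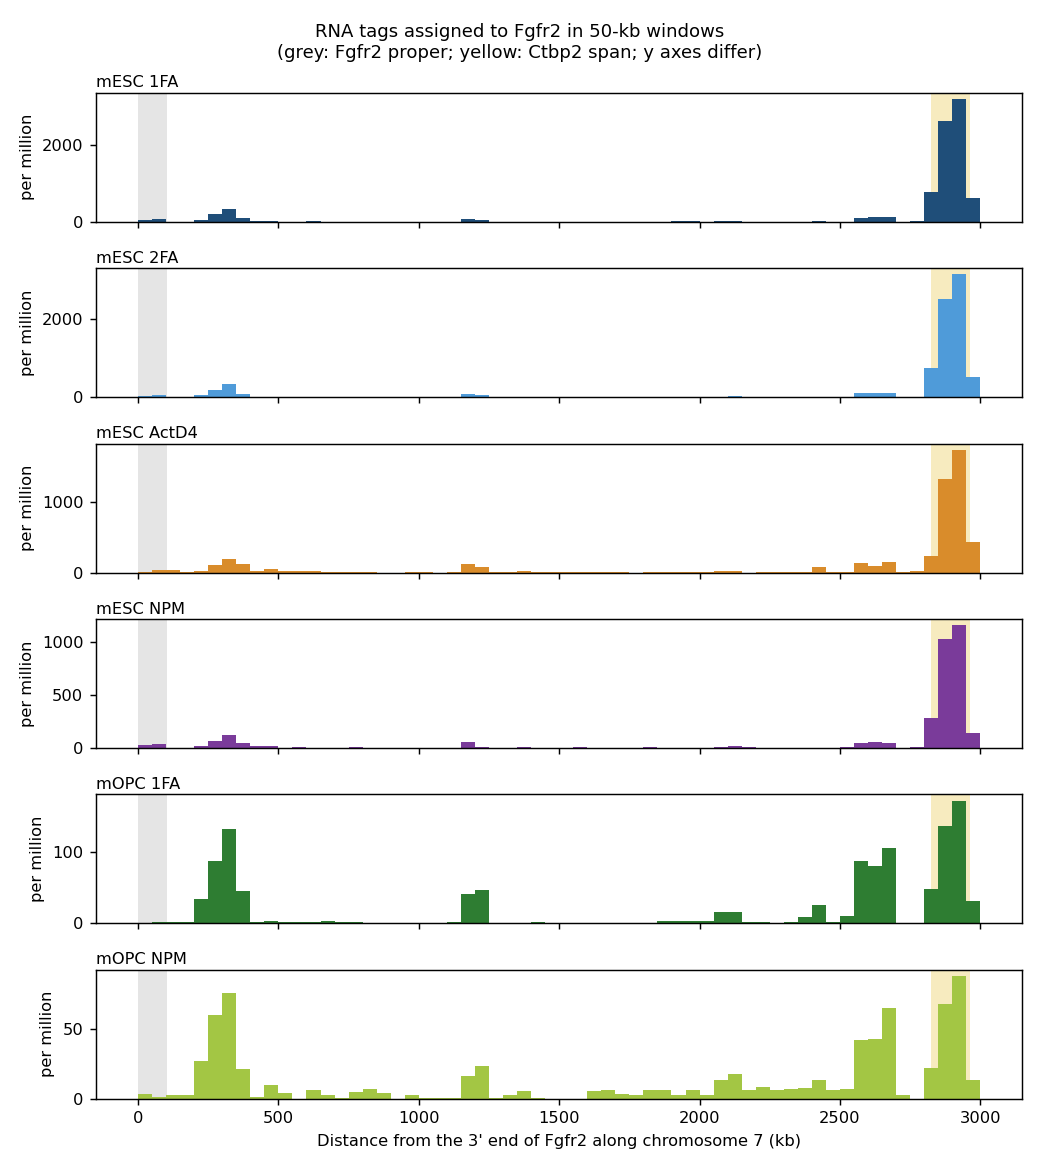
RNA tags assigned to Fgfr2 in CPM (y axis, scale differs between panels) in 50-kb windows from the 3′ end of Fgfr2 (x axis, kb), pooled over the libraries of each group. Grey marks Fgfr2 proper and yellow the Ctbp2 span. The tallest window lies in the Ctbp2 span in every group, where the window at 2900 kb reaches 3219 in mESC 1FA and 172 in mOPC 1FA. In mOPC 1FA the window at 300 kb, inside Ate1, reaches 132.

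The tags of mESC 1FA and 2FA stepped at the borders of the RefSeq genes. Over all libraries, most of whose tags are from these groups, the last 10 kb of Fgfr2 proper, at its 5′ end, held 291 tags and the first 10 kb past it held 16. The 50 kb before the Ctbp2 span held 1645 tags and the nearest 50 kb inside held 23651. The step was less steep in the nearest 10 kb, with 1391 tags outside and 2895 inside. In mOPC 1FA the nearest 10 kb held 3 tags on each side of the border of Fgfr2 proper, and 66 outside and 60 inside that of the Ctbp2 span, although its nearest 50 kb there held 87 and 497. In ActD4 and mOPC NPM the nearest 10 kb at the Ctbp2 span held 22 and 11 tags outside and 29 and 13 inside. Their nearest 50 kb held 29 and 13 tags outside and 398 and 103 inside. In mESC NPM the nearest 50 kb held 48 outside and 596 inside. At the border of Fgfr2 proper, ActD4 held 27 tags in the nearest 10 kb inside and 1 outside. A tag inside both annotated spans cannot be given to Ctbp2 or to Fgfr2-217 from its position.

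Splicing class separated the identifiers in the Ctbp2 span. Of 110628 intronic tags there, 110613 (99.99%) were assigned to Fgfr2 and 15 to Ctbp2. Of 1980 exonic tags, 1378 were assigned to Ctbp2 and 602 (30.4%) to Fgfr2. That share differed by group, at 34.2% in mESC 1FA, 30.5% in mESC 2FA, 35.4% in ActD4 and 1.88% in mESC NPM, and at 60.9% of 23 tags in mOPC 1FA and 3.57% of 28 in mOPC NPM. The Ctbp2 identifier thus stood for exonic RNA, but for a larger part of it in NPM than in 1FA. Over all groups, 49.2% of its 1393 tags in the span lay in coding exons and 32.7% in the 5′ UTR. Coding exons held 43.3% and the 5′ UTR 38.8% in mESC 1FA, against 69.4% and 11.5% in mESC NPM. All 602 exonic tags assigned to Fgfr2 in the span lay in the 5′ UTR, 373 in mESC 1FA and 3 in mESC NPM. Of all Fgfr2-assigned tags in the same span, 99.5% were intronic. In Fgfr2 proper 88.1% of 1744 tags were intronic.

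The Ctbp2 span was among the most captured RNAs of the series in mESC. The mESC 1FA libraries held 18406, 17929 and 20667 interactions assigned there, the 2FA libraries 15154, 14431 and 16614, the ActD4 libraries 1567 and 926, and the mESC NPM libraries 898 and 1799. The mOPC libraries held 715, 846 and 802 at 1FA and 238 and 223 at NPM. Taken as a transcript of its own, the span ranked 3 of 14248 transcripts in mESC 1FA and 3 of 14479 in mESC 2FA, and 434 of 11681 in mOPC 1FA.

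Scaled to the listed interactions of each library as CPM, the span reached 6899, 7343 and 7296 for mESC 1FA against 6755, 7090 and 6605 for mESC 2FA. Both sets overlapped. In bulk libraries fewer cells with an RNA and less of it per cell cannot be told apart. It reached 3742 and 3677 in mESC ActD4 and 2066 and 2954 in mESC NPM, with no overlap between these groups or with 1FA. The mOPC libraries stood at 323, 401 and 401 for 1FA, and NPM at 187.0 and 187.3. From high to low the order was therefore mESC 1FA with mESC 2FA, then ActD4, then NPM of mESC, and last 1FA before NPM of mOPC, where mESC 1FA and mESC 2FA were the only neighbours whose libraries overlapped. The log2 difference of mOPC 1FA from mESC 1FA, for which the pair was selected, was -3.83 for the Ctbp2 span, where the median over all transcripts was -0.30 and 33.0% of 10256 transcripts were called higher and 45.1% lower.

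RNA from between ranged less widely across groups than that of the span. Its CPM were 1415, 1539 and 1467 for mESC 1FA, 1383, 1477 and 1475 for 2FA, and 1488 and 1612 for ActD4. The mESC NPM libraries stood at 748 and 635, mOPC 1FA at 735, 862 and 823, and mOPC NPM at 600.3 and 560.3. Libraries of mESC 1FA overlapped with those of 2FA and of ActD4, and those of mESC NPM with mOPC 1FA, and the mOPC 1FA values lay below those of mESC 1FA (log2 difference -0.44, given as a description).

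Fgfr2 proper was sparse throughout. The mESC 1FA libraries held 188, 318 and 382 of its interactions, the 2FA libraries 172, 258 and 274, the ActD4 libraries 29 and 20 and the mESC NPM libraries 33 and 41. The mOPC libraries held 1, 9 and 4 at 1FA and 9 and 6 at NPM. The level of Fgfr2 proper was 0.675 to 1.29 CPM per kb in mESC 1FA against 50.4 to 53.6 for the Ctbp2 span, a comparison that allows for their lengths of 104 and 137 kb. The lowest mESC 1FA and mESC 2FA libraries were both replicate 1, and the mOPC counts were too few to order the mOPC groups.

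Interactions under the Ctbp2 identifier, part of the exonic RNA, followed another order. They numbered 259, 219 and 251 for mESC 1FA, 151, 136 and 131 for 2FA, 39 and 14 for ActD4 and 56 and 102 for mESC NPM. The mOPC libraries held 4, 5 and 2 at 1FA, and 13 and 14 at NPM. The mESC 1FA libraries thus stood at 88.6 to 97.1 CPM and mESC NPM at 129 and 167, the highest libraries of the series for this identifier. The mESC 2FA values of 52.1 to 67.3 lay below all of mESC 1FA, and the ActD4 values of 93.1 and 55.6 overlapped both. With the exonic tags of both identifiers in the span, mESC 1FA stood at 173, 118 and 120.03 CPM and mESC NPM at 131 and 169, so that these groups overlapped. The mESC 2FA libraries then stood at 108, 85.5 and 71.6 CPM, still below mESC 1FA.

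**Figure D2:**
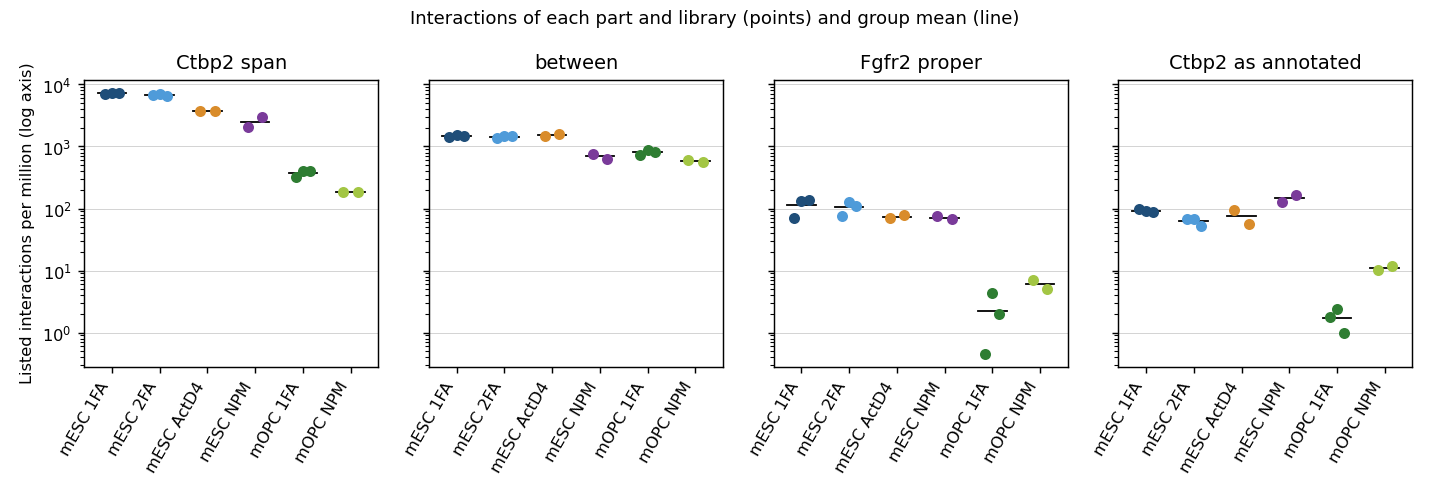
Listed interactions in CPM (y axis, log scale) of the Ctbp2 span, between, Fgfr2 proper and the Ctbp2 identifier in each library (points) of the 6 groups (x axis), with the group mean as a line. The Ctbp2 span falls from 6605 to 7343 in mESC 1FA and 2FA to 187 in mOPC NPM, between stays from 560 to 1612, and the Ctbp2 identifier is highest in mESC NPM.

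The question of the 2FA libraries was whether capture depends on the amount of crosslinker. In the fit without pairs, no part differed past the threshold between 1% and 2% formaldehyde. The log2 difference of mESC 2FA from mESC 1FA was -0.14 (SE 0.09, 95% interval -0.33 to 0.05) for the Ctbp2 span, -0.09 (SE 0.09) for between and -0.14 (SE 0.23) for Fgfr2 proper, with limma adjusted p from 0.574 to 0.852. Over all transcripts 0.0201% of 9962 were called higher and 0.0100% lower, 3 in all. The Ctbp2 identifier differed by -0.63 (SE 0.15, adjusted p = 0.155 by limma). With the replicate number as a block, which pairs these libraries, its adjusted p was 0.00292 and 516 transcripts were called. The identifier also passed without a filter on low counts (-0.63, adjusted p = 0.0109). Counting a pair only once in a library counts bins, and since the bins of a group were called on its pooled replicates, they vary little between its libraries by construction. Of 5660 transcripts 4337 were called in that way here, so its values are given below as sizes, with no weight on a call. They were -0.72 for the identifier and -0.09 for between.

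Intronic RNA of the Ctbp2 span was lower after transcription was blocked. The log2 difference of mESC ActD4 from mESC 1FA was -1.16 (SE 0.07, limma adjusted p = 3.32e-06), against a median of -0.41 over all transcripts. With tags within 10 kb left out it was -0.58 (adjusted p = 0.00563). RNA from between differed by -0.14 (SE 0.08, limma adjusted p = 0.167), and this sign turned when libraries were scaled by their totals (0.073) or when tags within 10 kb were left out (0.36, adjusted p = 0.0127). Fgfr2 proper differed by -0.74 (SE 0.29, adjusted p = 0.0564) and the Ctbp2 identifier by -0.56 (SE 0.22, adjusted p = 0.0640), neither past the threshold. These values depended on the setting. With each pair counted once per library, by which 5235 of 5673 transcripts were called, between stood at -0.76, Fgfr2 proper at -1.15 and the identifier at -0.85. Fgfr2 proper passed without mESC 1FA replicate 1 (-1.04, adjusted p = 0.00407) and without ActD4 replicate 2 (-0.83, adjusted p = 0.0273). The identifier passed without ActD4 replicate 1 (-0.88, adjusted p = 0.00136) and stood at -0.18 without ActD4 replicate 2 (adjusted p = 0.410). With an ActD4 library left out, the other is assumed to vary like the mESC 1FA libraries. In this comparison 44.4% of 9896 transcripts were called lower and 17.0% higher, so that a lower call was common. The ActD4 libraries were the smallest, and the part of their size in these values was not tested.

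RNA of all 3 parts was listed at a lower level in mESC NPM than in mESC 1FA. Pairs were called for the Fgfr2 identifier as a unit, at 1832 cis bins in mESC 1FA and 39 in mESC NPM. The values of between and Fgfr2 proper therefore depend also on which bins the span filled. The log2 difference was -2.24 (SE 0.31, limma adjusted p = 2.34e-04) for the Ctbp2 span, -1.79 (SE 0.17, adjusted p = 2.16e-05) for between and -1.28 (SE 0.25, adjusted p = 0.00200) for Fgfr2 proper. With the replicate number as a block, which is not shown to pair these libraries, the span was no longer called. The Ctbp2 identifier differed by -0.02 (SE 0.18, 95% interval -0.43 to 0.39, limma adjusted p = 0.941) and was higher with scaling by totals (0.68) and with tags over 10 kb apart or in trans only (1.65). It held a larger part of the exonic tags in mESC NPM than in mESC 1FA, as given above, and the part of this assignment in the difference was not tested. Here 33.2% of 10096 transcripts were called lower and 17.5% higher, with a median of -0.18. Scaling by totals moved that median to 0.51, and Fgfr2 proper then stood at -0.58 (adjusted p = 0.0791). It moved the span to -1.54 (adjusted p = 2.20e-04) and between to -1.09 (adjusted p = 1.34e-04). Without tags within 10 kb, the span stood at -1.32 (adjusted p = 5.24e-04), between at -0.40 (adjusted p = 0.0939) and Fgfr2 proper at -0.26 (adjusted p = 0.629). With each pair counted once per library the span stood at -3.61 and the Ctbp2 identifier at -0.56.

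In mOPC, too, RNA of the Ctbp2 span and of between was listed at a lower level at NPM. The pairs were again called for the Fgfr2 identifier as a unit. The log2 difference of mOPC NPM from mOPC 1FA was -1.82 (SE 0.14, limma adjusted p = 4.99e-05) for the Ctbp2 span and -1.30 (SE 0.13, adjusted p = 1.99e-04) for between. The Ctbp2 identifier, on 11 interactions at 1FA and 27 at NPM, reached 10 interactions only in the NPM libraries and so entered the fit through the group where it was higher. Its difference of 1.77 (SE 0.39, limma adjusted p = 0.00724, or 0.0195 with no filter on low counts) is therefore given as a description, and its adjusted p was 0.0785 and 0.101 when either NPM library was left out, the other then being assumed to vary like the mOPC 1FA libraries. The background was 27.3% of 10419 transcripts lower and 28.1% higher with a median of 0.14. Scaling by totals moved that median to 0.95, the span to -0.995 (adjusted p = 6.70e-04) and between to -0.47 (adjusted p = 0.00690). Without tags within 10 kb, the span stood at -0.97 (adjusted p = 0.0403) and between at -0.49 (adjusted p = 0.345). With each pair counted once per library, between stood at -0.43. Fgfr2 proper did not pass the filter on low counts.

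Between the cell types the NPM libraries differed in the Ctbp2 span and in the Ctbp2 identifier. The pair was selected for the difference of these same lines at 1FA, so this comparison is not independent of the selection. The log2 difference of mOPC NPM from mESC NPM was -3.29 (SE 0.23, limma adjusted p = 2.02e-04) for the span and -3.25 (SE 0.28, adjusted p = 5.15e-04) for the Ctbp2 identifier. Fgfr2 proper reached 10 interactions only in the mESC NPM libraries, where it was higher, so that its difference of -3.04 (SE 0.32, limma adjusted p = 0.00107, or 0.00114 with no filter on low counts) is a description. With each pair counted once per library the span stood at -0.93 and was no longer called (adjusted p = 0.0634). RNA from between differed by 0.18 (SE 0.15, 95% interval -0.20 to 0.57, adjusted p = 0.349 by limma), a sign that turned with scaling by totals (-0.25) and without tags within 10 kb (-0.18), and it was 0.60 when a pair counted only once in a library. The background here was 19.9% of 11043 transcripts lower and 31.3% higher. Counted as annotated, Fgfr2 stood at -1.64 (SE 0.21, limma adjusted p = 0.00219), and at 0.44 when each pair was counted once per library. Leaving out mOPC NPM replicate 1 or 2 kept -1.64 but moved its adjusted p to 0.378 and 0.381.

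The share of exonic tags in the Ctbp2 span, over both identifiers, was chosen for comparison after its values were seen. The mESC libraries had 2.48%, 1.59% and 1.63% at 1FA against 5.98% and 5.42% at NPM. The mOPC libraries had 1.39%, 1.18% and 0.373% at 1FA against 5.18% and 6.33% at NPM. NPM libraries lay above 1FA libraries in both lines, by 4.29 percentage points over both, given as a description without a test. In mESC 1FA most exonic tags carried the Ctbp2 identifier, listed at 50 cis bins, against 1832 for the Fgfr2 identifier. Exonic contacts far from the gene may thus be missing from the mESC 1FA share, and this was not tested. The share depends on both kinds of RNA, and in mESC the log2 difference of NPM from 1FA was -2.24 for the Ctbp2 span, nearly all intronic, while the CPM of all exonic tags overlapped.

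RNA tags along the Ctbp2 span stepped up at its second start. Upstream of 133081860 lie 42.1 kb of the span, and there the mESC 1FA libraries held 47.4 to 48.7 CPM per kb. The 66.6 kb from 133081860 to the start at 133015247 held 63.8 to 67.9, and the 28.3 kb downstream of 133015247 held 23.2 to 27.8. On this scale the middle stretch was the highest in every library but mOPC NPM replicate 2, with 1.49 there against 1.67 upstream. In mOPC 1FA the 3 stretches held 2.33 to 3.04, 2.89 to 3.57 and 1.15 to 1.48. The stretches were cut at the annotated starts that follow the printed Ctbp2 windows.

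**Figure D3:**
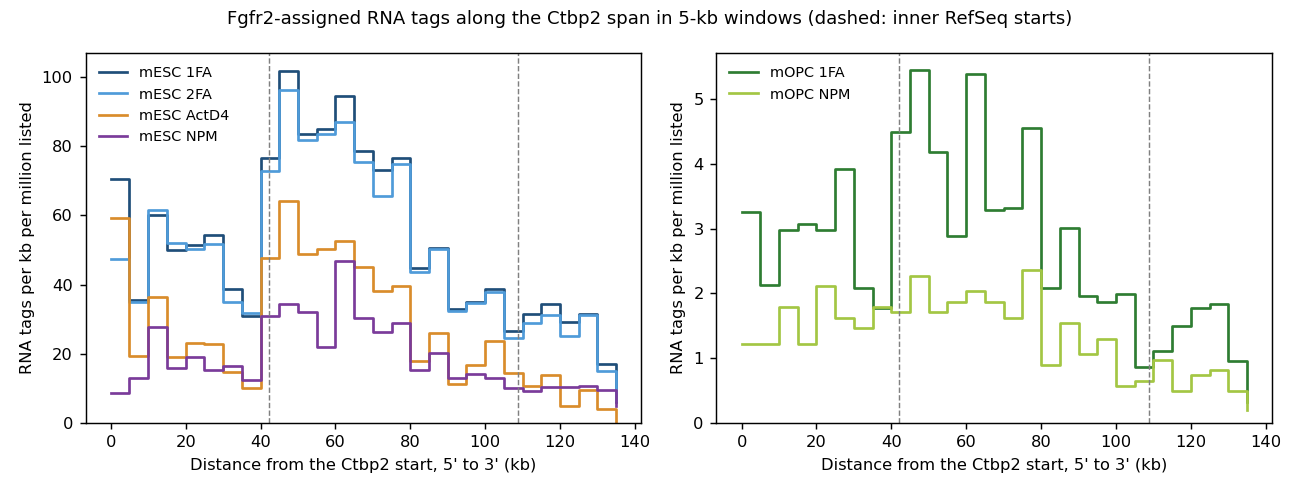
Fgfr2-assigned RNA tags in CPM per kb (y axis) in 5-kb windows from the 5′ start of Ctbp2 (x axis, kb), pooled per group, mESC groups on the left and mOPC groups on the right with its own scale. Dashed lines mark the inner RefSeq starts. In mESC 1FA the window 45 kb from the start is the highest at 102, and the windows past the last start lie from 17.1 to 34.4 before the final short window.

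RNA from between gathered in genes of its own strand. Of the 67 genes overlapping this stretch, 34 lie on the minus strand, cover 25.1% of it and held 77.0% of its 29766 tags. Genes of the plus strand cover 34.7% and held 11.2%. Ate1, which encodes an arginyltransferase of the N-degron pathway (chr7:130391493-130520369), held 11470 of these tags (38.5%), against 144 assigned to Ate1 itself. Fam53b (chr7:132712082-132813886) held 4906 (16.5%) against 91 of its own. Then came Eef1akmt2 with 1457, Nsmce4a, a subunit of the SMC5/6 complex, with 1321, 2310057M21Rik with 1267, Chst15, a chondroitin sulfotransferase, with 858, Ikzf5 with 655 and Oat, ornithine aminotransferase, with 573.

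The host genes differed in how their Fgfr2-assigned tags varied. Tags inside Ate1 stood at 701, 567 and 592 CPM in mESC 1FA, 353 and 405 for ActD4 and 202 and 238 for mESC NPM, and the mOPC libraries at 223, 267 and 258 for 1FA and at 179 and 134 for NPM. Those inside Fam53b stood at 186, 269 and 237 in mESC 1FA, 246 and 210.5 in mESC ActD4, and 163, 188 and 167 in mOPC 1FA. Those inside Eef1akmt2 stood at 64.5, 70.4 and 71.3 in mESC 1FA and at 127 and 127 in mESC ActD4. Under actinomycin D the tags of Ate1 were thus below all mESC 1FA libraries, those of Fam53b within their range and those of Eef1akmt2 above. Those of 2310057M21Rik (105 and 147 CPM), Ikzf5 (59.7 and 75.5) and Oat (81.2 and 87.4) were above as well. Those of Chst15 (16.7 and 43.7) were within the range, and those of Nsmce4a (76.4 and 87.4) within it and at its upper end. The level of the stretch between is a sum over such genes and over tags outside minus-strand genes. By group, the share inside minus-strand genes ranged from 63.9% in mOPC NPM to 79.3% in mESC 1FA.

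The DNA reached by RNA of the Ctbp2 span lay far along chromosome 7 in mESC. Its share of interactions in cis beyond 1 Mb was 63.9%, 64.1% and 65.6% for mESC 1FA and 62.8%, 62.4% and 62.9% for 2FA. The ActD4 libraries had 14.1% and 16.7%, and the mOPC 1FA libraries 27.3%, 28.5% and 33.7%. The NPM libraries had 0.334% and 0.778% for mESC and 0.840% and 1.35% for mOPC. Among 1807 transcripts with at least 1000 interactions in mESC 1FA the median share beyond 1 Mb was 4.25%, and Wwox, a large gene at a fragile site, was the only transcript above the span, at 68.3%. Over the 17 transcripts with at least 20000 interactions the median was 46.8%, and the part of the level of capture in this share was not tested.

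The share of distant contacts differed by part as well as by group. In mESC 1FA 50.9%, 44.8% and 46.3% of interactions from between lay in cis beyond 1 Mb, below every Ctbp2 span value. In mOPC 1FA 22.5%, 24.3% and 23.6% did, also below the span. In mESC ActD4 the values of 16.9% and 17.5% lay just above those of the span. These differences between parts were not tested, and all parts share the bins called for the Fgfr2 identifier as a unit.

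**Figure D4:**
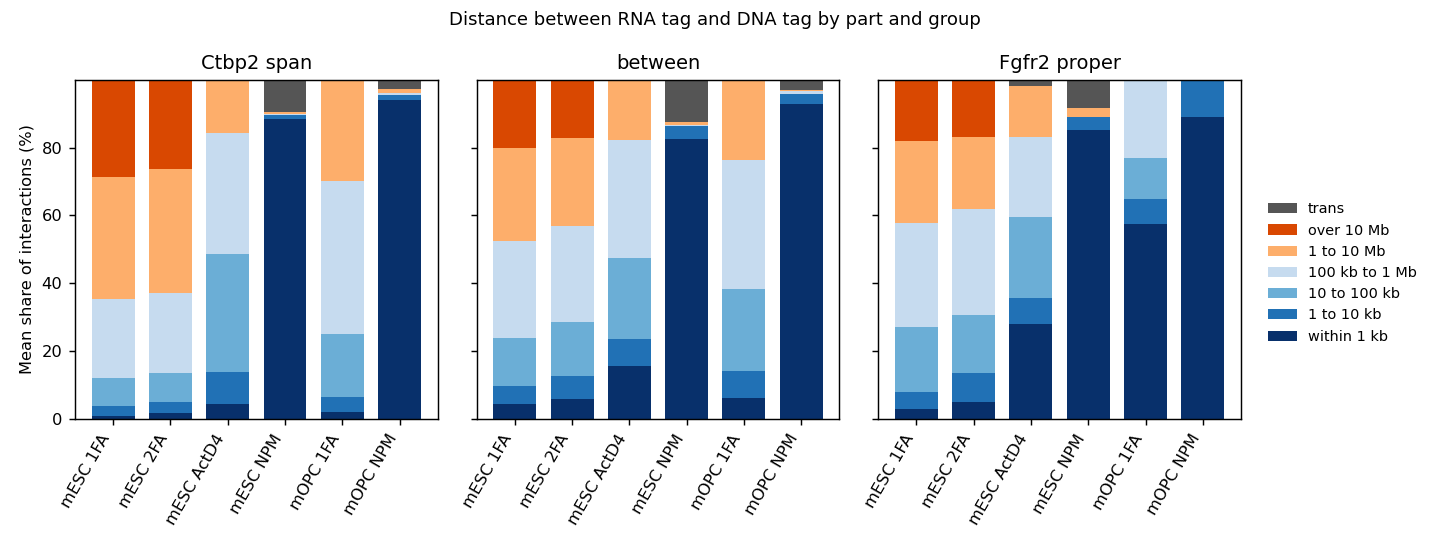
Mean share of interactions (y axis, %) in classes of distance between RNA tag and DNA tag, stacked to 100%, for the 3 parts (panels) and 6 groups (x axis). For the Ctbp2 span 64.5% of mESC 1FA interactions lie in cis beyond 1 Mb (orange and red) and 89.5% of mESC NPM interactions within 10 kb (the 2 darkest blues); Fgfr2 proper in mOPC rests on 14 and 15 interactions.

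Contacts in NPM libraries were local. Of the Ctbp2 span interactions of mESC, 3.46%, 4.32% and 3.87% lay within 10 kb at 1FA and 89.8% and 89.2% at NPM. For mOPC the shares were 6.29%, 6.97% and 5.74% at 1FA and 96.2% and 94.6% at NPM. The difference over both lines was 87.3 percentage points (two-sided exact permutation test within cell type, p = 0.02, the smallest possible), and the groups did not overlap. It was 32.1 points with each 25-kb bin counted once per library. Counting only DNA tags outside the annotated Fgfr2 span, a setting that by its construction leaves out most DNA near these RNA tags, it was 3.90 points and no longer called (exact permutation p adjusted to 0.63). All 12 tests of this comparison, on 4 measures of Fgfr2 as annotated and of these 2 parts, gave an exact permutation p = 0.02 (0.02 after Benjamini-Hochberg adjustment over the 12). The 12 are not independent, since Fgfr2 as annotated contains both parts and the shares of a part belong to the same total. Within 1 line alone the smallest possible p is 0.2. The shift held for the libraries as a whole, of which 92.1% to 94.2% of all interactions lay within 10 kb in NPM and 13.1% to 17.0% in 1FA.

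Contacts on other chromosomes took a larger share in NPM. Of the Ctbp2 span interactions of mESC they made up 0.0924%, 0.139% and 0.0677% at 1FA and 9.35% and 9.56% at NPM. For mOPC, none of the 715 interactions of 1FA replicate 1 were listed in trans, the other two 1FA libraries had 0.118% and 0.125%, and NPM had 2.10% and 3.59%. The difference over both lines was 6.06 percentage points (exact permutation p = 0.02), 35.2 points with each bin counted once and 95.4 points over DNA tags outside the annotated span. Library-wide the trans share was 3.61% to 4.87% in mESC NPM, below the span, and 5.44% to 6.73% in mESC 1FA, above it. In mOPC it was 3.93% to 6.27% at NPM and 11.3% to 13.3% at 1FA, above the span in both. Among transcripts with at least 1000 interactions in a group the median trans share was likewise higher at NPM, at 7.22% over 55 transcripts in mESC NPM against 0 over 1807 in mESC 1FA, and at 1.46% over 324 in mOPC NPM against 0 over 1172 in mOPC 1FA. Of these, 12.7% in mESC NPM and 19.8% in mOPC NPM lay above the span, whose share over the pooled libraries was 9.49% and 2.82%. The trans contacts of the span were listed at only 12 bins in mESC NPM, 5 in mOPC NPM and 2 in mESC 1FA. One 25-kb bin, chr17:39825001-39850000, took 136 of the 256 in mESC NPM, 5 of the 13 in mOPC NPM and 49 of the 56 in mESC 1FA. In 1 mESC 1FA library 1086 transcripts were linked to this bin, so it is not particular to this RNA. The part of this bin in the difference of the trans share was not tested. The remaining 7 in mESC 1FA fell in chr11:3175001-3200000, which overlaps Drg1 and Sfi1.

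After actinomycin D the contacts of the Ctbp2 span lay nearer. The ActD4 libraries had 14.04% and 13.6% within 10 kb, above all mESC 1FA libraries. The share in cis beyond 1 Mb fell by 49.1 percentage points from mESC 1FA, and no libraries overlapped, but 2 libraries against 3 cannot give a two-sided p below 0.2 (exact permutation p = 0.2, 0.24 after adjustment). In these libraries as a whole the share beyond 1 Mb was 1.75% to 1.77%, against 10.5% to 11.5% in mESC 1FA. The part of depth in this was not tested, and ActD4 held 2493 interactions of the span against 57002 in mESC 1FA.

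Fixing with 2% formaldehyde moved the spread of the Ctbp2 span by few percentage points. The share beyond 1 Mb was 1.83 points lower in mESC 2FA, with no overlap of libraries (exact permutation p = 0.1, the smallest possible, adjusted 0.267). The share within 10 kb was 4.23%, 5.77% and 5.15% for mESC 2FA, 1.17 points higher than at 1FA, and the groups overlapped (exact permutation p = 0.2). With libraries paired by replicate number, 2FA was higher within 10 kb and lower beyond 1 Mb in all 3 pairs (exact sign-flip permutation p = 0.25 for each, the smallest that 3 pairs allow).

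For equal numbers of interactions the span was also listed at more bins in mESC 1FA and 2FA. This does not make the lists equal, since the bins of a group were called at its own total, at 57002 interactions in mESC 1FA against 2363 in mOPC 1FA and 2493 in ActD4, and thinly filled bins may be missing from the smaller lists. In 200 interactions drawn from a library, the expected number of distinct 25-kb bins was 163, 162 and 165 for mESC 1FA, 161, 158 and 159 for 2FA and 65.3 and 70.6 for ActD4. The mOPC 1FA libraries had 101, 103 and 108, and the 4 NPM libraries 12 to 14.3. At this fixed number the mOPC 1FA libraries thus lay between mESC 1FA and mESC ActD4, with no overlap. The NPM libraries of both lines overlapped for the span, whereas RNA from between reached 38.9 and 36.1 bins in mESC NPM and 53.7 and 53.1 in mOPC NPM. The span covers 137 kb and between 2720 kb, and contacts of between at NPM were mostly local, with means of 86.3% in mESC and 95.7% in mOPC within 10 kb. These bins are thus mostly near the RNA tags, and the part of length and of host genes in their number was not tested.

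**Figure D5:**
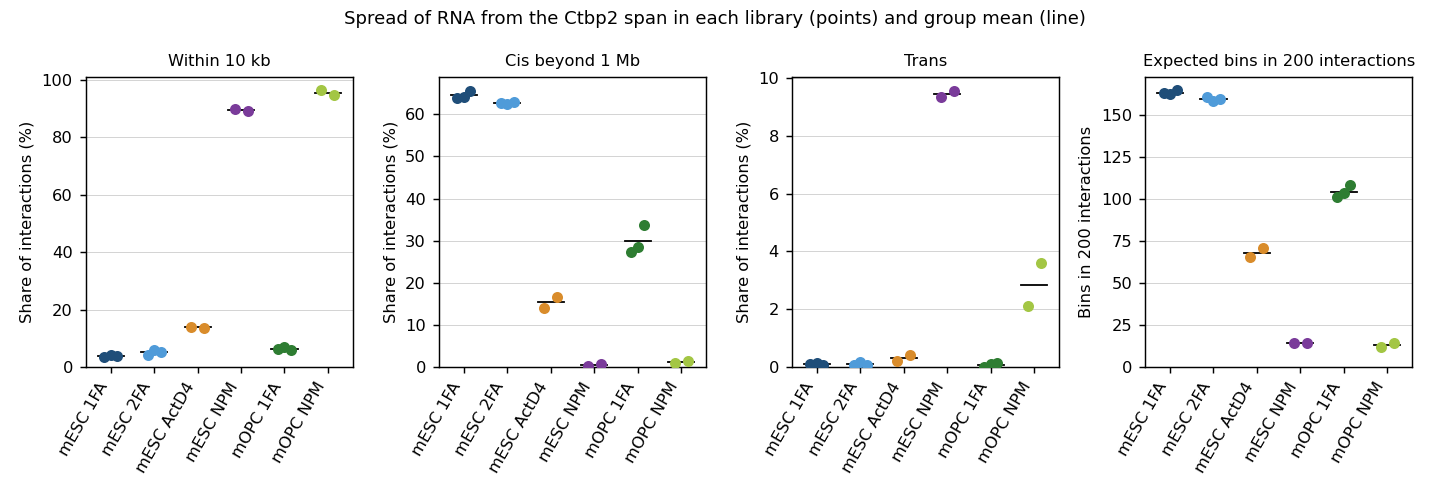
Spread of RNA from the Ctbp2 span in each library (points) of the 6 groups (x axis), with the group mean as a line. The panels give the share of interactions within 10 kb, in cis beyond 1 Mb and in trans (y axis, %), and the expected number of 25-kb bins in 200 interactions; the 4 NPM libraries stand alone at 89.2% to 96.2% within 10 kb and at 12 to 14.3 bins.

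In all, RNA of the Ctbp2 span was listed at 1832 of the 5818 bins of chromosome 7 (31.5%) in mESC 1FA and at 1565 in mESC 2FA. It was listed at 245 in mOPC 1FA, 130 in mESC ActD4, 21 in mESC NPM and 14 in mOPC NPM. Of the bins of mESC 1FA, trans bins included, 76.9% were shared with mESC 2FA, which is 90.0% of the mESC 2FA list. The 245 bins shared with mOPC 1FA are 13.4% of the mESC 1FA list and 99.6% of the mOPC 1FA list. All 131 bins of mESC ActD4 were in the mESC 1FA list.

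The contacts reached 86.4 Mb from the RNA tag in mESC 1FA, 11 Mb in mOPC 1FA and 10.0 Mb in mESC ActD4. The median cis distance was 2721 kb in mESC 1FA, 473 kb in mOPC 1FA and 0.257 kb in mESC NPM. Of the contacts beyond 1 Mb, 64.4% in mESC 1FA and 56.1% in mOPC 1FA lay on the side of Fgfr2, and the stretch of chromosome 7 on that side is the longer. Over 1757 distant bins the median was 16 interactions a bin in mESC 1FA, so no single target held the signal. The 5 distant bins with the most interactions adjoin one another from 134200001 to 134325000 on the other side of Ctbp2, over Adam12 and D7Ertd443e, with 100 to 119 interactions each in mESC 1FA, 57 to 94 in mESC 2FA and 0 to 9 in mOPC 1FA. Their median distance was 1.15 to 1.24 Mb, just past the 1 Mb limit.

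RNA of the Ctbp2 span was also listed at the DNA of the receptor gene, which covers 104 kb and so several 25-kb bins. Fgfr2 proper received 194 of its 57002 interactions in mESC 1FA, 195 in mESC 2FA, 12 in mOPC 1FA and 2 in mESC NPM. Of the 709 interactions of any RNA with the DNA of Fgfr2 proper in mESC 1FA, 194 thus came from the Ctbp2 span, 174 from Fgfr2 proper itself, 202 from between and 67 from Tacc2, a neighbouring gene. In mOPC 1FA there were 223 such interactions, of which 9 came from Fgfr2 proper, 82 from between and 45 from Sox6. At the DNA of the Ctbp2 span 86.8% of 6754 interactions in mESC 1FA carried the Fgfr2 identifier, nearly all of them (5727) with RNA of the span itself.

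Contacts of the Ctbp2 identifier were mostly listed in cis within 1 Mb. In mESC 1FA their median cis distance was 154 kb, and 33.3% had their DNA tag inside the Ctbp2 span. A mean of 57.4% lay from 100 kb to 1 Mb away there. None of the 729 interactions of the identifier in mESC 1FA lay beyond 1 Mb, with a largest distance of 0.888 Mb, at 50 bins. In mESC 2FA 7 of 418 did. In mESC NPM 9 of 158 lay on other chromosomes (3 and 6 by library), and in the other groups none was listed in trans. Its pairs were called on these few interactions alone, so its distances are not set against those of the intronic RNA.

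Transcripts of 3425 with at least 100 interactions a library on average were ranked by the Pearson correlation of their log2 CPM with that of the Ctbp2 span over the 15 libraries. The 5 most alike were Jarid2, a component of PRC2, with r = 0.997, Kat6b, a histone acetyltransferase (0.996), Wwp2, a ubiquitin ligase (0.995), Abcc4, a transporter (0.995) and Pcsk6, a proprotein convertase (0.995). The median over the 3425 was 0.521. The 15 points are 6 groups, so that r describes the order of group levels. It was 0.718 for between, 0.792 for the Ctbp2 identifier and 0.891 for Fgfr2 proper.

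The other genes of the FGF pathway are given beside all transcripts. The list of 30 (receptors, ligands, adaptors, kinases and feedback genes) had 20 to 24 tested in each comparison. In mESC ActD4 11 of 20 were lower and 1 higher, with a median of -0.43, where 44.4% of all transcripts were lower and 17.0% higher with a median of -0.41, so that the list lay near the background. In mESC NPM 15 of 21 were lower and 2 higher (median -0.71), where 33.2% of all transcripts were lower and 17.5% higher (median -0.18). In mOPC NPM against mOPC 1FA 11 of 23 were lower and 4 higher (median -0.30), where 27.3% of all were lower and 28.1% higher (median 0.14). Against mESC NPM 6 of 24 were lower and 4 higher (median -0.23), where 19.9% of all were lower and 31.3% higher (median 0.25). In mOPC 1FA against mESC 1FA 14 of 20 were lower and 3 higher (median -0.75), where 45.1% of all were lower and 33.0% higher (median -0.30). None of 21 was called in mESC 2FA in the fit without pairs. The list was not counted in the fit with the replicate block, which called more transcripts.

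Among the best captured of the list were Gab1, an adaptor below the receptors, Spred2, an inhibitor of Ras signalling, and Etv5, a transcription factor induced by FGF. Etv5 fell in mESC ActD4 (log2 difference -1.21, SE 0.09, limma adjusted p = 1.10e-05), close to the -1.16 of the Ctbp2 span, and Spred2 fell by 0.42 (SE 0.08, limma adjusted p = 0.00384). Gab1 fell by 0.32 (SE 0.10, limma adjusted p = 0.0224). In mESC NPM Etv5, Spred2 and Gab1 were lower, with log2 differences of -1.79, -1.59 and -1.18 and limma adjusted p-values of 0.000106, 0.000123 and 0.000620.

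Of 28 genes of the CtBP corepressor complex and its partners, 24 to 27 were tested. In mESC ActD4 12 of 24 were lower and 5 higher (median -0.24), close to the 44.4% and 17.0% over all transcripts (median -0.41). In mESC NPM 14 of 25 were lower and 5 higher (median -0.68), beside 33.2% and 17.5% over all (median -0.18). In mOPC NPM against mOPC 1FA 12 of 26 were lower and 6 higher (median -0.32), beside 27.3% and 28.1% over all (median 0.14). In mOPC NPM against mESC NPM 6 of 27 were lower and 11 higher (median 0.35), beside 19.9% and 31.3% over all (median 0.25). In mOPC 1FA against mESC 1FA 11 of 26 were lower and 12 higher (median -0.12), beside 45.1% and 33.0% over all (median -0.30). In the fit without pairs none of 24 was called in mESC 2FA, and this list too was not counted with the replicate block. The best captured were Sox6, Zeb2, Zeb1 and Zfpm2, transcription factors of which Sox6 also stands among the mOPC markers. Zeb1 was higher in mOPC NPM than in mESC NPM by a log2 difference of 2.16 (SE 0.14, limma adjusted p = 1.37e-04), where the Ctbp2 span was lower by -3.29. Sox6 and Zeb2 were listed at 0 in both mESC NPM libraries and at 2840 to 2989 and 907 to 1104 scaled CPM in mOPC NPM.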

How the data were processed

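RADICL-seq libraries were analysed from the authors' lists of significant interactions. The authors aligned RNA and DNA tags to mm10 with BWA (version 0.7.15-r1140 in the submitters' processing notes), removed ribosomal RNA and duplicates, assigned RNA by strand to GENCODE M14 genes and tested each pair of a transcript and a 25-kb bin. The deposited p-value and adjusted p-value of each pair were kept by the authors at under 0.05, on pooled replicates. The files hold no counts, so interactions were counted here, exact copies once. Log2 CPM (TMM scaling, prior count 0.5; at least 10 interactions in as many libraries as the smaller group and 15 in all) was fitted with limma 3.58.1 under R 4.3.3, with an intensity trend, two-sided, and Benjamini-Hochberg adjustment over all transcripts and the 3 parts. On simulated counts at least 98.15% of changes of log2 2 and 44.12% of log2 1 were recovered, and up to 12.28% of calls were false. These counts were independent, with a fixed dispersion, a small set of changed transcripts and no list called on pooled replicates. The rates therefore check the code and are not error rates for these data. Spread was tested by exact permutation of libraries. Gene positions came from GENCODE M21 and RefSeq. Members, gene lists and tests were chosen with earlier results of these data known. The text names the members, host genes with most tags, the 5 transcripts most alike, the 5 distant bins with most interactions and the 4 best captured genes of each list, of which a gene is not reported here. Deviations from group means correlated between same-numbered mESC 1FA and 2FA libraries (r = 0.464, 0.455 and 0.654 over 3526 transcripts), so the numbers pair them. Alternatives were the scaling, prior, filter, counting of pairs, distance classes, replicate block and each library left out.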

Additional observations from a re-analysis of the deposited data

How the results depend on the processing

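These lists hold no depth, and the read numbers that the paper gives per library were not used. A pair below the authors' threshold is not seen, so low counts of Fgfr2 proper and of the Ctbp2 identifier limit what can be compared. Groups of 2 libraries limit each test of spread.

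With the replicate block, mESC NPM against mESC 1FA gave -2.11 (adjusted p = 0.159) for Fgfr2 as annotated and -2.21 (adjusted p = 0.0761) for the Ctbp2 span, both past the threshold without it. These groups share only 2 replicate numbers, which are not shown to pair their libraries. Deviations from group means correlated at r = 0.188 and 0.135 for equal numbers and at -0.188 to 0.137 for unlike ones. The cause was not tested. The block raised the calls of mESC 2FA against mESC 1FA from 3 to 516, the Ctbp2 identifier among them, and changed no other call on a member.

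Leaving out tags within 10 kb, mOPC NPM against mOPC 1FA gave -0.63 (adjusted p = 0.210) for Fgfr2 as annotated. Counting each pair once per library, mOPC NPM against mESC NPM gave 0.44 for Fgfr2 as annotated, a reversal, and -0.93 (adjusted p = 0.0634) for the Ctbp2 span. For other values that reversed, leaving out mESC 1FA replicate 3 or mESC 2FA replicate 1 turned Fgfr2 proper in 2FA to 0.034 and 0.062, in a range of -0.41 to 0.062. Scaling by totals and tags over 10 kb only gave 0.073 and 0.36 for between in ActD4, -0.25 and -0.18 for between in mOPC NPM against mESC NPM, and 0.68 and 1.65 for the Ctbp2 identifier in mESC NPM. Leaving out 1 library, that identifier ranged from -0.27 to 0.23. The cause of these was not tested.

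For the Ctbp2 span within 10 kb, counting only DNA tags outside the annotated span left 3.90 points for NPM minus 1FA (adjusted p = 0.63), and -0.00567 for 2FA. Trans differences of 2FA, near 0 in the main analysis, turned to 0.0175, 0.0190 and 0.00537 with each bin once for Fgfr2 as annotated, the span and between, and to 0.00374 for the span outside the annotated span. With 1 library left out they ranged from -0.0471 to 0.0412 for Fgfr2 as annotated, from -0.0340 to 0.0194 for the span and from -0.184 to 0.123 for between, and ActD4 ranged from -0.187 to 0.392 for between. The cause was not tested. Leaving out 1 NPM library, the smallest possible p is 0.05, so the 4 NPM tests of the span are no longer under the threshold. Over all libraries left out in turn these ranged from 86.9 to 87.7 points within 10 kb, -47.0 to -45.4 beyond 1 Mb, 5.69 to 6.43 in trans and -120.8 to -119.1 bins. Fgfr2 as annotated in mOPC NPM against mESC NPM ranged from -1.83 to -1.42, and lost its call without either mOPC NPM library (adjusted p = 0.378 and 0.381). A lone library left in a group was assumed to vary like the other group.

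Counting each RNA position once gave shares of the Ctbp2 span of 74.4% in mESC 1FA, 74.9% in mESC 2FA and 67.5% in mESC ActD4. The total of calls in mESC 2FA was 38 without tags within 10 kb, 2080 without a low filter and 4337 with each pair once, and in mOPC NPM against mESC NPM it went from 5652 to 616 with each pair once and 500 without tags within 10 kb. Without a low filter the calls went from 6072 to 10283 in ActD4, from 5116 to 8902 in mESC NPM, from 5779 to 9060 in mOPC NPM against mOPC 1FA and from 5652 to 9245 in mOPC NPM against mESC NPM. Without mOPC NPM replicate 1 or 2 the last pair of comparisons gave 2860 and 3454, and 2864 and 3066, and mOPC NPM against mOPC 1FA gave 3160 without tags within 10 kb. Pairs of at least 5 interactions changed nothing, since every member pair held more.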
